A study of Mus musculus with 3 samples.

Results

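The genes described here encode enzymes and small proteins of redox balance, glutathione chemistry and aldehyde metabolism, measured in mouse thymocytes. They were chosen by symbol: array probes with exactly 1 gene symbol in the platform annotation were averaged per symbol, and a symbol was a member if it began with Gst, Gpx, Prdx, Txn, Glrx, Nqo, Hmox, Aldh, Akr, Cbr, Msr or Adh followed by a digit, or was a superoxide dismutase, Cat, Gclc, Gclm, Gsr or Gss. This gave 61 genes of 6795 with a single symbol, covered by 64 probes, and 8905 features were tested in all. No filter on low signal was applied, so each of the 61 was tested.

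The study set purified CD69hi thymocytes of wild-type mice (B6 in the labels) against unseparated thymocytes of Zap70-/- mice. CD69 appears on thymocytes that have received a T cell receptor signal, and Zap70 is the kinase that passes this signal on, so the question was what sets thymocytes that were signalled apart from those that were not. Total RNA of both was hybridised together on each of 3 spotted 2-colour arrays of one print, with the CD69hi RNA in Cy3 on arrays 1 and 2 and in Cy5 on array 3. The titles call the second RNA CD69lo. The RNAs also differ in genotype and purification, which cannot be told apart from the signal. Age, sex and the number of mice are absent from the labels used here, as is any word on separate animals for each array; p-values therefore reflect array-to-array spread, possibly only technical. A change in the makeup of the cells and a change in RNA per cell cannot be told apart in such bulk RNA.

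All values are log2 ratios of CD69hi over Zap70-/-, so a value above 0 means a higher level in CD69hi RNA. The base of the deposited logarithm was taken as 2, which no source used here states. The ratios of arrays 1 and 2 were turned by the labelled dyes, reading the deposited value as Cy5 over Cy3. The submitters do not state this direction. The titles put CD69hi first for arrays 1 and 2 and second for array 3. Read as numerator over denominator, that order would give the opposite direction. Before turning, array 3 correlated with array 1 at r = -0.25 and with array 2 at r = -0.40 across 9596 probes, while arrays 1 and 2 correlated at r = 0.61. In the turned values Rag1, a recombinase gene of immature thymocytes, was lower in CD69hi RNA on every array (-1.37, -1.42 and -0.77, limma adjusted p = 0.035). That call was lost on leaving out array 1 or array 2 (0.13 and 0.18 as adjusted p) and with the arrays scaled to one spread (0.072). With the opposite reading every sign given here would turn. Of the 8905 features, 368 were higher and 250 lower in CD69hi RNA at an adjusted p of at most 0.05.

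Glutathione is a small thiol made in a pair of steps by glutamate-cysteine ligase and glutathione synthetase. Transferases attach it to reactive compounds and peroxidases use it to remove peroxides, while peroxiredoxins do the same with electrons from thioredoxin. Aldehyde and alcohol dehydrogenases, aldo-keto reductases and carbonyl reductases convert reactive carbonyl compounds, and some aldehyde dehydrogenases make retinoic acid. Many of these genes respond to oxidative stress through the transcription factor NRF2, which binds the antioxidant response element. In the thymus, developing cells die in large numbers and are cleared by macrophages, which carry their own set of oxidant-handling enzymes.

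The core of the antioxidant response element, TGACNNNGC, was searched on both strands of the RefSeq promoters (GRCm38.p6, 250 bases before to 50 after the start), the only motif searched. Promoters were found for 49 members, of which 9 held the letters (18.4%), against 14.0% of all 27025 genes in the table. Of these 9 members 6 had a mean ratio above 0 and 3 below 0, and 0 passed the test. Their median ratio was 0.11, against -0.17 for members with a promoter and no match, and this difference was not tested. A match is a run of letters and not a shown binding site. The 6 windows shown are those of members with a role in glutathione synthesis, transfer, peroxide or superoxide removal and thioredoxin reduction, with the matching letters in capitals, read 5′ to 3′ along the gene. In Prdx1, Gclm, Sod1 and Txnrd1 the motif lies on the opposite strand, so its complement is printed, and the Txnrd1 window belongs to 1 of its 3 listed promoters.
Prdx1, chr4:116685450-116685490, plus strand: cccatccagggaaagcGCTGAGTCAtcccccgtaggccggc
Gclm, chr3:122245407-122245447, plus strand: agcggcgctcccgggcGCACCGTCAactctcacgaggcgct
Sod1, chr16:90220690-90220730, plus strand: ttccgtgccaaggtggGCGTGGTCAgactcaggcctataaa
Txnrd1, chr10:82859098-82859138, plus strand: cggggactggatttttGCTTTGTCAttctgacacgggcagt
Gsta3, chr1:21240448-21240488, plus strand: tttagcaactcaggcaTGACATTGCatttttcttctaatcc
Gstm5, chr3:107895796-107895836, plus strand: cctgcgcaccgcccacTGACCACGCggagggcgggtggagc
Their mean ratios were 0.27 for Prdx1, 0.11 for Gclm, 0.48 for Sod1, -0.47 for Txnrd1, -0.36 for Gsta3 and 0.14 for Gstm5, so genes with the letters lay on both sides of 0. The other 3 members with a match were Aldh1a2, Akr1c19 and Txndc11.

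Few of these enzymes passed the test for a difference between CD69hi and Zap70-/- RNA, and not passing does not show equal levels. Only 2 of 61 passed, both glutathione transferases and both higher in CD69hi RNA, Gstp3 and Gsta4, and 59 did not pass. This is 3.28% of the members, against 6.94% of all features called (4.13% higher and 2.81% lower). The median of the members' mean ratios was -0.09 (all features 0.01), and it was -0.03, -0.17 and -0.04 on arrays 1, 2 and 3. At an unadjusted p of at most 0.05, 5 members were higher and 9 lower, which is 14 of 61, against 23.4% of all features (12% higher and 11.4% lower). At least a 2-fold difference in one direction on all 3 arrays was reached by 0 members, against 2.84% of all features. Without array 1, without array 2 and with the arrays scaled to one spread 0 members passed, against 2.26%, 1.34% and 4.15% of all features. Without array 3, 4 members passed (6.56%, against 7.77% of all features), 1 higher and 3 lower. With a dye term 8 did (13.1%, against 12.1%). In these settings the members' counts fell and rose where those of all features did, though not in proportion.

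Members leaned towards lower values where the arrays gave one sign. On all 3 arrays 19 members lay below 0 and 6 above 0, which is 31.1% and 9.84% of them, against 22.7% and 24.3% of all features (47% with one sign in either direction). Another 18 had one sign on arrays 1 and 2 and the other on array 3 (29.5%, against 30.8% of all features). The last 18 had opposite signs on arrays 1 and 2 (29.5%, against 22.2%). The lean was small in size: 53 of the 61 means lay within 0.5 of 0 (86.9%, against 80.3% of all features). The 95% interval of the mean (limma, not adjusted for the number of genes) lay inside a 2-fold difference either way for 51 members (83.6%, against 78.2% of all features). For 44 of these 51 it also held 0. An interval wholly within 0.5 of 0 was found for 6 members (9.84%, against 19.3% of all features).

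**Figure D1:**
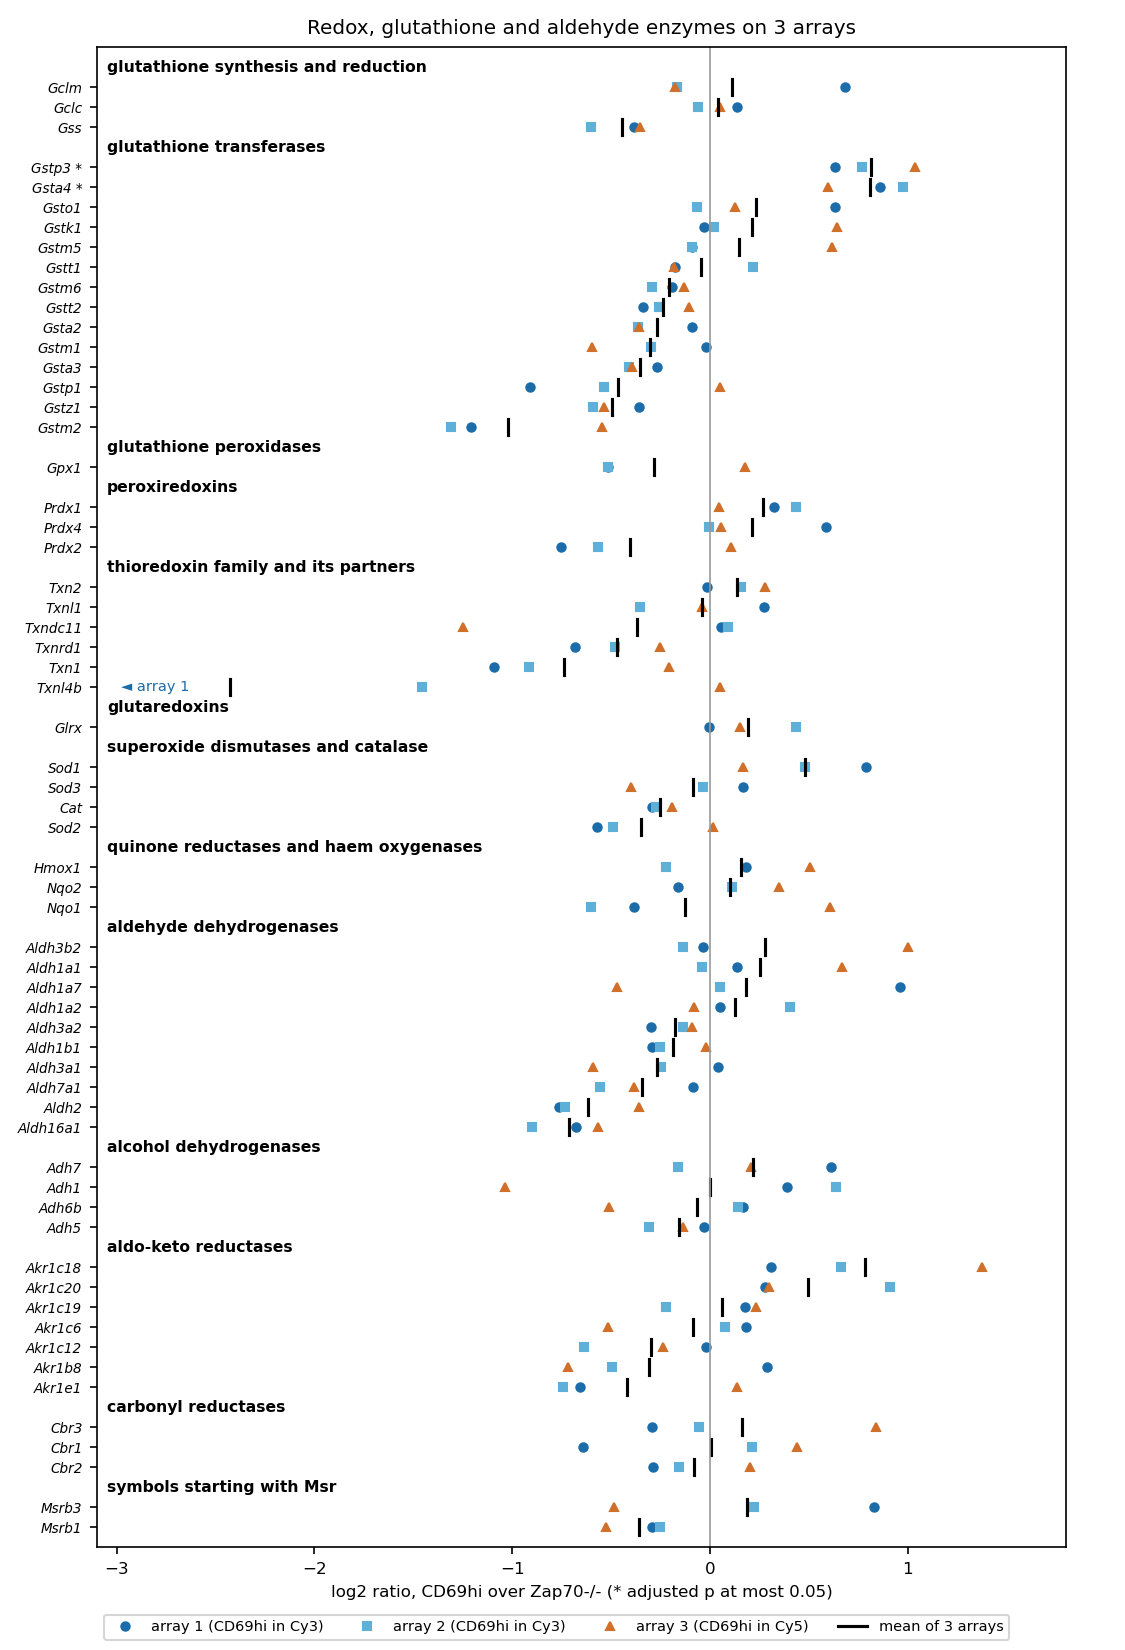
Log2 ratio of CD69hi over Zap70-/- RNA (horizontal axis) for the 61 members grouped by enzyme family, with 1 symbol per array and a bar at the mean of the 3. An asterisk marks Gstp3 and Gsta4, the members that passed. The value of Txnl4b on array 1, at -5.87, lies beyond the axis and is marked by an arrowhead.

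Glutathione transferases were the largest family, with 14 measured genes, and held both calls. Gstp3, a pi-class transferase, had log2 ratios of 0.63, 0.77 and 1.04 on arrays 1, 2 and 3. Every array put it higher in CD69hi RNA. Its mean was 0.81 ± 0.21 (SD, n = 3), a fold of 1.76 (limma adjusted p = 0.046). Leaving out array 1, 2 or 3 ended the call, at adjusted p of 0.14, 0.28 and 0.054, and so did scaling, at 0.051.

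Its promoter is shown whole because Gstp3 is the called member with an entry in the promoter table; lower case marks the 250 bases before the start and capitals the 50 after it, and it holds no match to the response element core.
Gstp3, chr19:4059398-4059697, minus strand: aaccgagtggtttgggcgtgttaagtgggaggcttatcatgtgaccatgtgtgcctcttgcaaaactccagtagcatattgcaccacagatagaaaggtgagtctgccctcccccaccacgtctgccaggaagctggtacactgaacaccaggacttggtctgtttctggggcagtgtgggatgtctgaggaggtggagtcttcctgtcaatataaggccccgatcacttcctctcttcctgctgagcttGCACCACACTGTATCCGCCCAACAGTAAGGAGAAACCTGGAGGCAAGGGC

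Gsta4, an alpha-class transferase that conjugates the lipid peroxidation product hydroxynonenal, had ratios of 0.86, 0.97 and 0.60. These also lay above 0 on every array, with the lowest on array 3. The mean was 0.81 ± 0.19 (SD, n = 3), a fold of 1.75 (adjusted p = 0.044), and the 95% interval ran from 0.44 to 1.18. Leaving out array 1 or array 2 ended this call, at adjusted p of 0.21 and 0.34, as did scaling, at 0.074, whereas it held on arrays 1 and 2 alone at 0.042.

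Macrophage and dendritic cell markers lay on the same side of 0 as both transferases. Of 16 measured, 11 were called higher in CD69hi RNA and 0 lower, against 4.13% and 2.81% of all features. All 16 means lay above 0, from 0.04 to 2.83 with a median of 1.42. Without single arrays 8, 7 and 9 were higher. The lysozyme gene Lyz2 had ratios of 2.52, 2.57 and 2.42, and the cathepsin gene Ctss 2.85, 3.23 and 2.41. Apoe, a lipid carrier, had 2.31, 2.50 and 2.57, and the complement gene C1qa 2.13, 2.31 and 2.24. Their part in the ratios of Gstp3 and Gsta4 was not tested.

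The other transferases spread to both sides of 0. Gstm2, of the mu class, had ratios of -1.21, -1.31 and -0.55, below 0 on every array and the lowest in the family. Its mean of -1.02 ± 0.41 (SD, n = 3) missed the threshold (adjusted p = 0.054), which it passed on arrays 1 and 2 alone (0.030), when the fit had a dye term (0.033) and when features beyond 4 on any array were dropped (0.042). The zeta-class gene Gstz1, whose enzyme acts in tyrosine breakdown, had -0.36, -0.59 and -0.54, and the alpha-class Gsta3 had -0.27, -0.41 and -0.39. Both were steady across the arrays, but neither passed (adjusted p = 0.11 and 0.19). The pi-class Gstp1 differed from Gstp3 in its values, with -0.91, -0.54 and 0.05, so that array 3 did not share the sign of the other arrays (adjusted p = 0.29). The remaining 8 transferases (Gsto1, Gstk1, Gstm5, Gstt1, Gstm6, Gstt2, Gsta2 and Gstm1) had means from -0.31 to 0.23. Spotted cDNA probes can bind transcripts of related genes, so values within the alpha, mu and pi classes are uncertain.

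Glutathione synthesis showed no called change in 3 genes (6.94% of all features were called). Gclc, the catalytic subunit of glutamate-cysteine ligase, had ratios of 0.14, -0.06 and 0.05. Its 95% interval, from -0.29 to 0.38, was among the narrower ones and centred near 0 (mean 0.04). Gclm, the modifier subunit, had 0.68 on array 1 but -0.17 and -0.18 on arrays 2 and 3. Gss, glutathione synthetase, was below 0 on every array (-0.39, -0.60 and -0.35), with a mean of -0.45 ± 0.13 (SD, n = 3, adjusted p = 0.13).

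Peroxide and superoxide enzymes gave 0 calls among 8 genes, too few to set against the 6.94% of all features called. Gpx1, the main cytosolic selenium-dependent glutathione peroxidase, had -0.52, -0.52 and 0.18, and the peroxiredoxin Prdx2, abundant in red cells, had -0.75, -0.57 and 0.11. In both, arrays 1 and 2 lay below 0 and array 3 above it. Sod2, the mitochondrial manganese superoxide dismutase, averaged -0.57, -0.49 and 0.01 over its probes. Of these, 1 showed the same split (-0.45, -0.38 and 0.16), while the other lay below 0 on every array (-0.70, -0.60 and -0.13). The cytosolic Sod1 lay above 0 on every array (0.79, 0.48 and 0.16), with a mean of 0.48 ± 0.31 (SD, n = 3, adjusted p = 0.19). Prdx1 (0.32, 0.43 and 0.04) also lay above 0 throughout, while Prdx4, of the endoplasmic reticulum, had 0.59 on array 1 and values within 0.06 of 0 on the others. Catalase, Cat, had the tightest values of the 61 genes at -0.29, -0.27 and -0.19 (mean -0.25 ± 0.05, adjusted p = 0.30). The extracellular Sod3 had a mean of -0.09. Both probes of Sod2 and both of Prdx2 had means below 0 (-0.23 and -0.48 for Sod2, -0.45 and -0.36 for Prdx2).

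Thioredoxin and its reductase were lower in CD69hi RNA on every array without passing. Txn1, the cytosolic thioredoxin, had ratios of -1.09, -0.92 and -0.21. Arrays 1 and 2 lay near each other and array 3 near 0, and the mean was -0.74 ± 0.47 (SD, n = 3, adjusted p = 0.13). On arrays 1 and 2 alone it passed (adjusted p = 0.041), and in the fit that had a dye term its adjusted p was 0.0496. Txnrd1, the selenoenzyme that reduces thioredoxin, had -0.68, -0.48 and -0.25 (mean -0.47 ± 0.22, adjusted p = 0.14). The mitochondrial thioredoxin Txn2 had -0.02, 0.16 and 0.28, and Txnl1, a thioredoxin-like protein of the proteasome, had 0.28, -0.35 and -0.04. Txnl4b, whose product belongs to a family of splicing proteins, had -5.87, -1.46 and 0.05, so its mean of -2.43 ± 3.08 rested on array 1 (adjusted p = 0.29, and a mean of -0.70 without that array). The glutaredoxin gene Glrx, which reduces protein-glutathione bonds, had 0.00, 0.44 and 0.15.

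Genes of cell division lay mostly below 0 as well, with a median of -1.37 and 18 of 19 means below 0. Of the 19 measured, 7 were called lower and 0 higher, against 2.81% and 4.13% of all features. The called genes with the largest differences were the mitotic kinase genes Bub1b (mean -2.14), Aurkb (-1.95) and Cdk1 (-1.87), and the topoisomerase gene Top2a (-1.67). No cell cycle gene was called without array 1 or without array 2, and 14 were without array 3, while scaling left 2. Their part in the ratios of Txn1, Txnrd1 and Gstm2 was not tested.

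Haem oxygenase and quinone reductases are classical stress-induced genes, and 0 of 3 passed (6.94% of all features did). Hmox1, which breaks down haem and is high in macrophages that digest red cells, had ratios of 0.18, -0.22 and 0.50. Nqo1 had -0.39, -0.60 and 0.61, and Nqo2 had -0.16, 0.11 and 0.35. For all 3 the highest value was on array 3, where CD69hi RNA carried Cy5, and their signs were mixed. The 95% interval of Hmox1 ran from -0.32 to 0.63 and that of Nqo1 from -0.83 to 0.58, so a 2-fold difference lay outside both.

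Aldehyde dehydrogenases gave 0 calls among 10 genes, also too few to set against the 6.94% of all features called. Aldh16a1 was the lowest, at -0.68, -0.90 and -0.57, below 0 on every array with little spread (mean -0.71 ± 0.17, SD, n = 3). Its adjusted p was 0.054, and it passed in the fit that had a dye term (0.048) and when features beyond 4 on any array were dropped (0.045). Aldh2, the mitochondrial enzyme that oxidises acetaldehyde, followed at -0.76, -0.74 and -0.36 (mean -0.62 ± 0.22, adjusted p = 0.087), and it passed without array 3 and with a dye term (adjusted p = 0.048 in each). The retinoic acid-forming enzymes Aldh1a1 (0.14, -0.04 and 0.67) and Aldh1a2 (0.05, 0.41 and -0.08) had mixed signs. Aldh3b2 had -0.04 and -0.14 on arrays 1 and 2 and 1.00 on array 3, the highest mean of the family at 0.28. The remaining 5 (Aldh1a7, Aldh3a2, Aldh1b1, Aldh3a1 and Aldh7a1) had means from -0.34 to 0.18.

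Alcohol dehydrogenases, 4 genes, had means from -0.16 (Adh5, which oxidises the glutathione adduct of formaldehyde) to 0.22 (Adh7). In this family Adh1 had the widest split between array 3 and the other arrays. It had 0.39 and 0.64 on arrays 1 and 2 and -1.03 on array 3, with a mean of 0.00. Adh6b had 0.17, 0.14 and -0.51.

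Aldo-keto reductases held the highest means over the 3 arrays after the 2 called transferases. Akr1c18, which inactivates progesterone, had ratios of 0.31, 0.66 and 1.38. All 3 arrays lay above 0, but over a wide range, and the mean of 0.78 ± 0.54 (SD, n = 3) did not pass (adjusted p = 0.14) except with a dye term (adjusted p = 0.043). Akr1c20 had 0.28, 0.91 and 0.30 (mean 0.49 ± 0.36, adjusted p = 0.20). The other Akr1c genes, Akr1c19, Akr1c6 and Akr1c12, had means of 0.06, -0.09 and -0.30, and transcripts of this clustered family may bind each other's probes. Akr1e1 was lowest at -0.66, -0.75 and 0.14, and Akr1b8 had 0.29, -0.50 and -0.72.

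Of the 3 carbonyl reductases 0 passed, where 6.94% of all features did. Cbr3 (-0.29, -0.06 and 0.84), Cbr1 (-0.64, 0.21 and 0.44) and Cbr2 (-0.29, -0.16 and 0.20) each had their highest value on array 3. Methionine sulfoxide reductases repair oxidised methionine. Msrb1, a selenoprotein of this kind, lay below 0 on every array (-0.29, -0.25 and -0.53, mean -0.36 ± 0.15, SD, n = 3, adjusted p = 0.21). Msrb3 had 0.83, 0.22 and -0.48, and its 2 probes gave like means of 0.23 and 0.15.

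**Figure D2:**
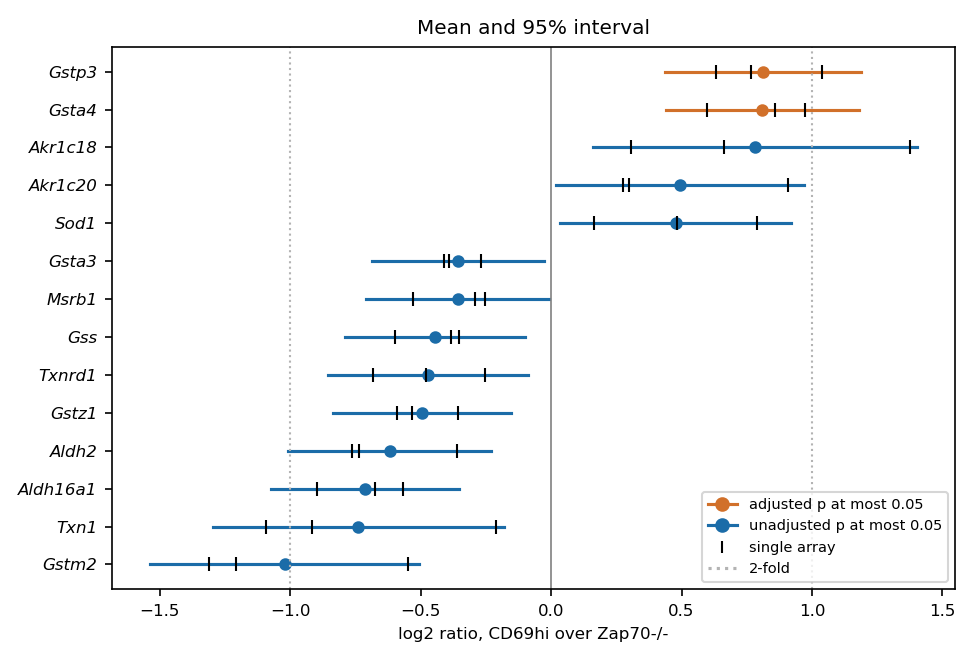
Mean log2 ratio of CD69hi over Zap70-/- RNA (dots) with its 95% interval (lines) for the 14 members with an unadjusted p of at most 0.05, with a tick for each array. The intervals of Gstp3, Gsta4, Akr1c18, Akr1c20 and Sod1 lie above 0, and those of Aldh2, Aldh16a1, Txn1 and Gstm2 reach past a 2-fold lower level (dotted line at -1).

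Array 3 differed from the other arrays for many members, as it did for other features. Across the 61 members arrays 1 and 2 correlated at r = 0.65, arrays 1 and 3 at 0.04 and arrays 2 and 3 at 0.31. Across 6795 genes these were 0.62, 0.23 and 0.41. The members' correlations include Txnl4b (-5.87, -1.46 and 0.05), which lay far from all other members on array 1 and can weigh heavily in them. They were not computed without it, so their difference from those of all genes is not read further. The correlations describe the arrays, which share one print and differ in dye orientation. Only array 3 carried CD69hi RNA in Cy5, so the dye term cannot be told apart from any other difference of that array. Array 3 lay farther from the mean of arrays 1 and 2 than those lay from each other for 38 members (62.3%, against 67.9% of all features). In 11 members arrays 1 and 2 lay below 0 and array 3 above it (18%, against 15.9% of all features). A dye term was called for 0 of the 8905 features (limma, with 1 residual degree of freedom), and its smallest unadjusted p among the 61 members was 0.0032, for Txndc11, whose product is a thioredoxin-domain protein of the endoplasmic reticulum (0.05, 0.09 and -1.25). With that term 8 members passed (13.1%, against 12.1% of all features), 3 higher (Gstp3, Gsta4 and Akr1c18) and 5 lower (Gstm2, Txn1, Aldh2, Aldh16a1 and Txndc11). Because the orientations are not balanced, a dye effect would not cancel in the means given here.

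**Figure D3:**
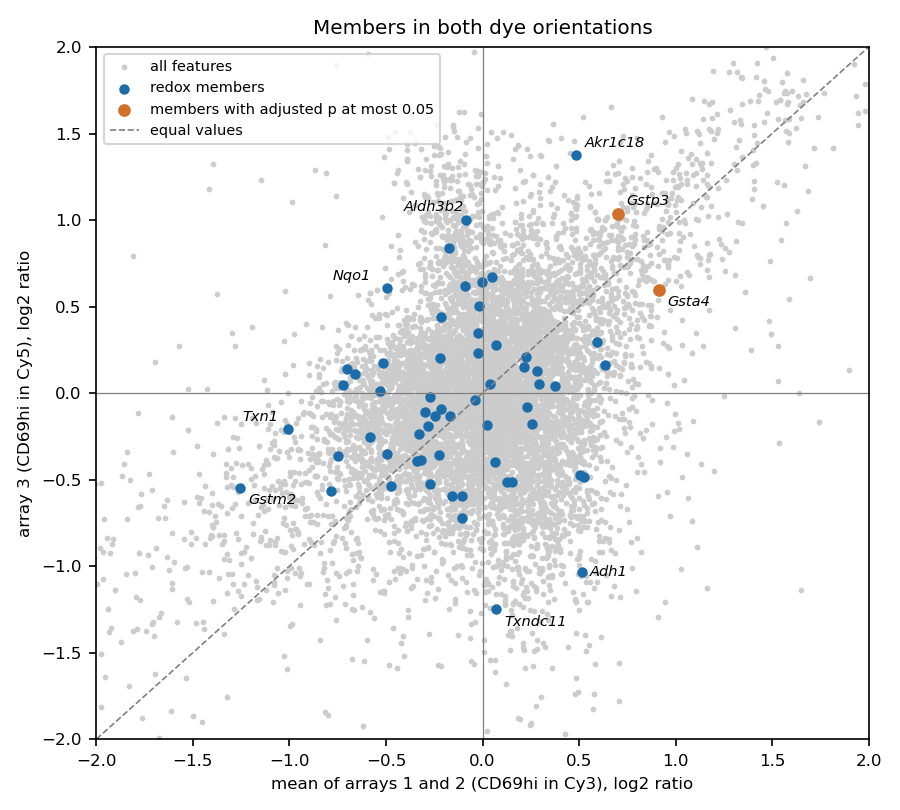
Array 3 (vertical axis) against the mean of arrays 1 and 2 (horizontal axis), both as log2 ratios of CD69hi over Zap70-/- RNA, for all features (grey) and the members (blue, and orange where the adjusted p was at most 0.05). Txnl4b lies beyond the axes and is not drawn. Adh1, Txndc11 and Nqo1 are examples with opposite signs on array 3 and in the mean of arrays 1 and 2.

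In lists of related pathways at most 2 genes a list were called. Of all features 4.13% were called higher and 2.81% lower. Counts of 0 or 1 in lists of 4 to 14 genes cannot be told apart from these shares. Of 6 measured regulators of the NRF2 pathway, the NRF2 gene itself not among them, 0 passed. Their means ran from -0.62 to 0.47, with a median of -0.16. The list holds both activators and inhibitors, so its median gives no direction for the pathway. NADPH is the electron source of both the glutathione and the thioredoxin systems. Of 9 genes listed for its supply 0 passed either, with a median of -0.33 and means from -1.09 to 0.41. Some of these act in the pentose phosphate pathway without making NADPH themselves. The lowest mean belonged to such a gene and rested on array 1 (-2.55, against -0.41 and -0.31 on arrays 2 and 3).

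Among 6 genes of cysteine and gamma-glutamyl metabolism, 3 of them members, the gamma-glutamyltransferase Ggt5 was higher (0.80, 0.66 and 1.21, adjusted p = 0.048). Leaving out array 1, 2 or 3 ended that call (0.17, 0.19 and 0.052 as adjusted p), and scaling did too (0.061). Among 4 genes of the superoxide-producing NADPH oxidase, Ncf4, a subunit of the phagocyte enzyme, was higher (0.83, 1.23 and 1.40, adjusted p = 0.031), a call lost when array 1, 2 or 3 was left out (0.066, 0.16 and 0.053). Of 5 genes listed for selenoproteins and their synthesis, Sephs2, which makes the selenium donor, was lower (-1.21, -1.09 and -0.66, adjusted p = 0.040). The Sephs2 call was lost when array 1 or 2 was left out (0.17 and 0.24) and under scaling (0.087).

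Among called genes of the members and of these lists, those with the largest differences lay outside the families of the rule. The lists were chosen with earlier results of these data known, so this order says nothing about such chemistry in general. Of 6 detoxification genes the epoxide hydrolase Ephx1 (2.68, 3.11 and 3.47) and the methyltransferase Nnmt (2.76, 3.13 and 3.26) were higher, with adjusted p of 0.0070 and 0.0051. Of 14 genes of retinoid metabolism and binding, the retinaldehyde reductase Dhrs3 was lower (-2.71, -2.57 and -1.73, adjusted p = 0.015), except with scaling (adjusted p = 0.053), and 13 did not pass. Of 5 metal- and iron-binding genes 0 passed. The ratios of Ephx1, Nnmt and Dhrs3 were farther from 0 on each array than that of either called transferase.

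**Figure D4:**
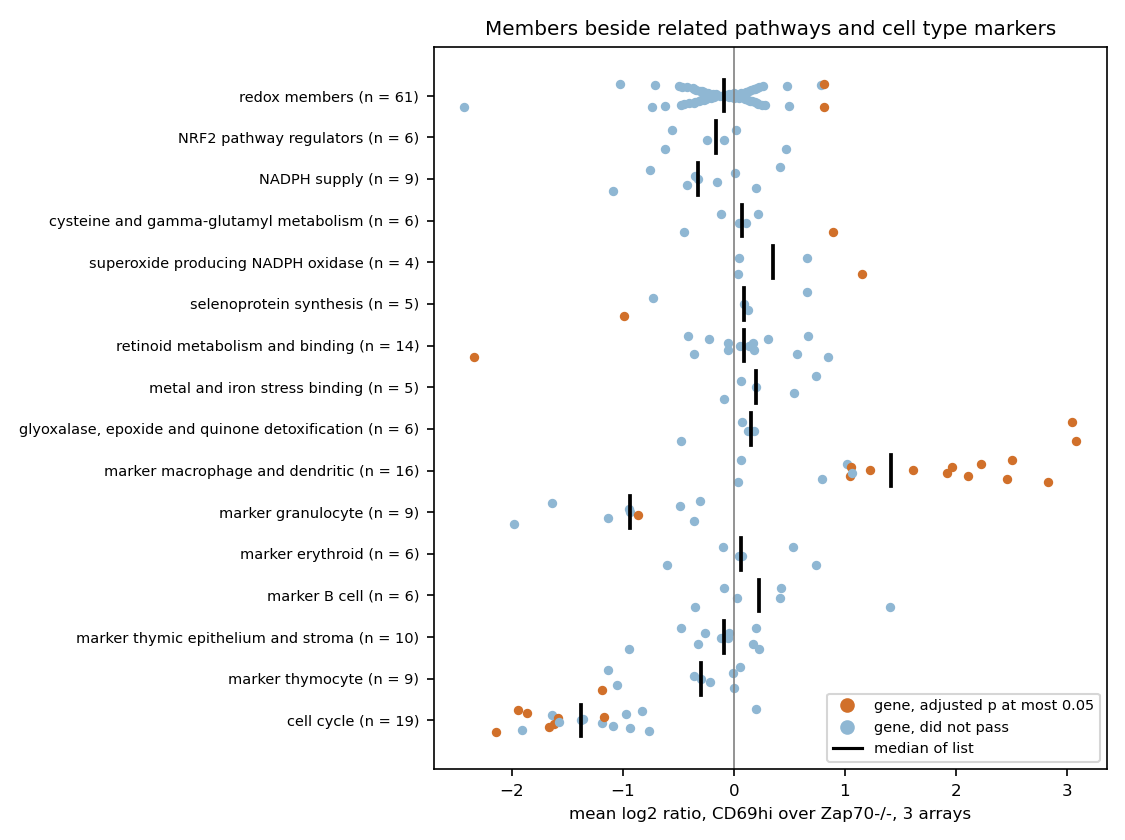
Mean log2 ratio of CD69hi over Zap70-/- RNA over 3 arrays (horizontal axis) for each gene of the members and of 15 other lists, with the list's median as a bar. Macrophage and dendritic cell markers lie above 0 (median 1.42) and cell cycle genes mostly below (median -1.37), while the members centre at -0.09.

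Markers of other cells were set beside the members, and their counts stand against 4.13% of all features called higher and 2.81% lower. Of 9 granulocyte genes all had means below 0 (median -0.94), and 1, the calprotectin gene S100a8 (-0.81, -1.16 and -0.63, adjusted p = 0.049), was called lower and 0 higher. S100a8 was lost when array 1, 2 or 3 was left out (0.18, 0.35 and 0.052 as adjusted p), under scaling (0.065) and with probes fitted singly (0.051). Leaving out array 1 or array 2 left 0 granulocyte genes called by limma, and leaving out array 3 gave 4 others. Erythroid (6 genes, median 0.06), B cell (6 genes, median 0.22) and thymic epithelial or stromal markers (10 genes, median -0.08) gave 0 calls. The B cell means, 4 above 0 and 2 below, ran from -0.35 to 1.40. The highest had 0.70, 2.10 and 1.40 (limma adjusted p = 0.062). With probes fitted singly, and with features above 4 dropped, 1 B cell gene was called higher. With a dye term 1 erythroid and 2 epithelial or stromal genes were called lower. Of 9 thymocyte markers 1, Rag1, was called lower, with a median of -0.29. These ratios do not show levels, so the presence of a cell type in either RNA was not checked.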

How the data were processed

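Total RNA of CD69hi and Zap70-/- thymocytes was compared on 3 2-colour arrays. The authors deposited 1 log2 ratio per probe and array (9596 probes). The base 2 is an assumption here, since for background correction, spot filtering, normalization and log base the sources used here say nothing. The deposited medians were -0.004, -0.005 and -0.002, with 0 missing values. Spot intensities were not used, so dim spots were not left out, and the number of arrays limits precision. Probes with 1 symbol (7486) were averaged per symbol; 3 probes with several symbols of which 1 fits the rule were left out.

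Each of 8905 features was fitted with limma 3.58.1 (lmFit, eBayes; R 4.3.3), 1 coefficient against 0, two-sided, with Benjamini-Hochberg adjustment over all features, with 2 residual degrees of freedom and 2.75 prior ones from eBayes. The script was tested on simulated data. A ± is the SD over 3 arrays. Members, lists and alternatives were chosen with earlier results of these data known. Members were named if called, if their unadjusted p was at most 0.05, or if highest or lowest in a family; the others are named to account for every member, and so after their values were seen. Of other lists (NRF2, NADPH, cysteine, NADPH oxidase, selenoprotein, retinoid, metal, detoxification, cell cycle and cell markers), called genes were named, at most 4 a list. The search of protein motifs written in the design was not run. Alternatives left out each array, added a dye term, scaled or centred arrays, used robust shrinkage or single probes, dropped features above 4 and left array 3 unturned.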

Additional observations from a re-analysis of the deposited data

How the results depend on the processing

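The count of 2 members called (2 higher, 0 lower) ran from 0 to 4 when each array was left out in turn (0 to 1 higher, 0 to 3 lower), and the count over all 8905 features, 618, ran from 119 to 692. With a dye term 8 members (5 lower) and 1076 features passed. With scaling 0 members (0 higher) and 370 features passed. Without features above 4 on any array 4 of 60 members passed, 2 of them lower, and 724 of 8818 features (6.67% and 8.21%). With array 3 not turned against the others 0 members (0 higher) and 0 features passed by limma. The cause of these differences was not tested. The members' median of -0.09 ran from -0.18 to -0.10 without single arrays (-0.18 without array 1). Centring, robust shrinkage and single probes kept all 31 named members on their side of the threshold.

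Of all 61 members 22 had a mean that changed sign when 1 array was left out (7 without array 1, 4 without array 2 and 14 without array 3), none of them called. Among the 31 members named by rule these were 7, with ranges of -0.17 to 0.26 for Gclm, -0.49 to 0.11 for Nqo1, -0.22 to 0.023 for Cbr2, -0.13 to 0.52 for Msrb3, -0.02 to 0.34 for Hmox1, -0.086 to 0.48 for Aldh3b2 and -0.17 to 0.39 for Cbr3. Nqo1 also turned to 0.057 with a dye term. With array 3 not turned, Txn2 (-0.046), Hmox1 (-0.18), Aldh3b2 (-0.39), Akr1c18 (-0.14) and Cbr3 (-0.40) changed sign. Each array holds both RNAs, so the fit of the ratio already compared them within arrays, and no other pairing was made.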
